A study of Danio rerio with 18 samples.

Results

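The tRNAs for phenylalanine and tryptophan were followed in zebrafish (Danio rerio) eggs and embryos through blastula and gastrula stages. All nuclear rows of the tRNA count table named for either amino acid were taken, which gave 38 of 2578 nuclear entries, 30 for tRNA-Phe and 8 for tRNA-Trp. An entry was either a single transcript, meaning a distinct mature tRNA sequence, or a group of transcripts whose reads could not be told apart. Abundance came from 12 mim-tRNAseq libraries of wild-type embryos of the TLAB strain, 2 for each of 6 stages: the unfertilized egg, the 256-cell, 1000-cell and sphere stages of the blastula at 2.5, 3 and 4 hours post-fertilization, and the shield and bud stages of the gastrula at 6 and 10 hours. mim-tRNAseq sequences tRNAs in near full length and tolerates mismatches at modified bases. Charging, which is how much of a tRNA is joined to its amino acid, was measured in 6 other wild-type libraries, 3 from bud and 3 from sphere, whose labels give no strain.

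The libraries were made from pooled whole embryos grown without treatment, so the embryo is averaged over its cells, and a change in tRNA per cell cannot be told apart from a change in which cells hold it. Counts are also relative: each value is a part of the tRNA sequenced in that library. A tRNA table holds no marker genes, so the stage labels could not be checked against any. Library totals ran between 977425 and 10121680 counts. The Phe family held between 19734 and 201061 counts in a library and the Trp family between 19042 and 229258. Counting error was thus small beside the spread between most replicate pairs. The exception was the Phe family at the 256-cell stage, where the replicates differed by no more than counting error.

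tRNAs translate codons into amino acids: each is joined to its amino acid by a dedicated aminoacyl-tRNA synthetase and pairs with the codon through its anticodon. Among the nuclear entries of the zebrafish table all phenylalanine tRNAs carry the anticodon GAA. It reads both phenylalanine codons (UUC by Watson-Crick pairing and UUU by wobble). All nuclear tryptophan tRNAs carry CCA, which reads UGG, the only tryptophan codon of the standard genetic code. Among nuclear tRNAs neither amino acid therefore has a choice of isoacceptor in these embryos. The supply of each from these tRNAs rests on a single anticodon family made up of many gene copies and sequence variants (isodecoders). tRNA genes are transcribed by RNA polymerase III, and the early embryo starts from tRNAs stored in the egg before its own genome becomes active.

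The genes of the families differed in number far more than the tRNAs did in abundance. The Phe-GAA family had 152 gene copies, rank 25 from the most among the 46 families with a copy number, and the Trp-CCA family had 42, rank 39. Averaged over the 12 libraries, Phe-GAA held 2.33% of nuclear tRNA counts (rank 20 of 47 families) and Trp-CCA held 2.54% (rank 18). Per gene copy this was 0.0153% for Phe-GAA and 0.0605% for Trp-CCA, beside a median of 0.0141% over the 46 families. Phe-GAA was thus near the middle of the families in yield per gene copy, at rank 21, and Trp-CCA stood at rank 5. These are descriptions of counts and of copies annotated in the reference, and which copies were transcribed was not measured.

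Most of the 38 entries were hardly seen. A transcript counted as detected when it reached 0.005% of nuclear counts in at least 1 library, which kept 8 of 27 single Phe-GAA transcripts and 4 of 7 single Trp-CCA transcripts, 12 of the 607 detected in the whole table. Of the 4 unresolved groups, 2 of the 3 Phe-GAA groups and the only Trp-CCA group also passed. The undetected entries together made up at most 0.422% of the Phe family and 0.221% of the Trp family in any library, and tRNA-Phe-GAA-48 had 0 counts in all 12 libraries.

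Among the 5 most abundant tRNA-Phe entries, abundance did not follow the number of genes. tRNA-Phe-GAA-5, with 16 gene copies, was the most abundant and held 51.6% of the family on average, with a range of 46.9% to 56.8% over the 12 libraries. tRNA-Phe-GAA-1 had the most copies of any single Phe transcript, 44, and held 17.0% on average. Among the single transcripts it came next in abundance after tRNA-Phe-GAA-5. The unresolved group tRNA-Phe-GAA-24/25/31, with 3 gene copies for 3 transcripts, held 16.7%, close to tRNA-Phe-GAA-1. tRNA-Phe-GAA-10, encoded by 1 gene, held 5.56%. By contrast, the group of 19 transcripts headed by tRNA-Phe-GAA-23 had 49 gene copies and held 2.70% of the family. Per gene copy, tRNA-Phe-GAA-10 gave 0.131% of nuclear counts, the 24/25/31 group 0.130%, tRNA-Phe-GAA-5 0.0753%, tRNA-Phe-GAA-1 0.00890% and the 19-transcript group 0.00128%. These 5 entries are the 5 most abundant of the family, and they include those with the most gene copies (49, 44 and 16). In the whole family 21 entries had 1 gene copy, and the relation over all Phe entries was not tested.

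tRNA-Trp was made up almost entirely of 2 entries. An unresolved group of 11 transcripts (tRNA-Trp-CCA-17/1/2/3/5/7/8/9/11/12/13), with 35 gene copies, held 74.4% of the family on average, between 70.5% and 79.9% in single libraries. tRNA-Trp-CCA-4, encoded by 1 gene, held 24.98% on average, between 19.5% and 29.0%. Per gene copy, tRNA-Trp-CCA-4 gave 0.633% of nuclear counts and the 11-transcript group 0.0540%. Together these 2 entries held 99.1% to 99.5% of the family in every library, so the other 6 Trp transcripts, each encoded by 1 gene, contributed little. Transcripts that are near-identical in sequence can exchange reads in the authors' assignment, so the split within a family is less certain than the family's total.

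Both families changed little in their share of the pool over the 6 stages. The Phe-GAA family held 2.49% and 2.70% of nuclear counts in the 2 egg libraries, 2.36% and 2.37% at 256-cell, 2.16% and 2.47% at 1000-cell, 2.22% and 2.44% at sphere, 2.03% and 2.25% at shield, and 2.45% and 2.05% at bud. Its egg libraries were the highest pair, and 1 library at shield and 1 at bud were the lowest. The Trp-CCA family held 2.41% and 2.24% in egg, 2.69% and 2.42% at 256-cell, 2.09% and 2.86% at 1000-cell, 2.42% and 2.21% at sphere, 2.44% and 3.00% at shield, and 2.90% and 2.79% at bud. Here the bud libraries were both high, but single libraries of the 1000-cell and shield stages reached the same level, and the 1000-cell pair alone spanned most of the family's whole range. In the shallowest library, 1 of the egg libraries, the Wilson intervals at a confidence level of 95% were 2.46% to 2.53% for Phe-GAA and 2.37% to 2.44% for Trp-CCA, and cover counting error only. The highest stage mean was 1.21 times the lowest for Phe-GAA and 1.23 times for Trp-CCA, against a median of 1.36 over all 47 families.

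**Figure D1:**
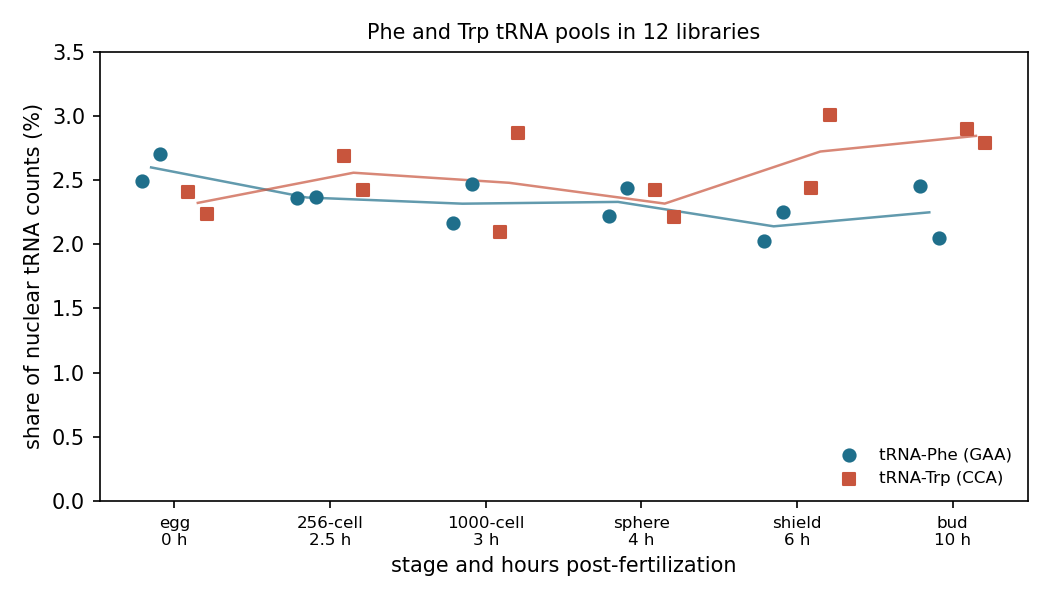
Share of nuclear tRNA counts (percent, vertical axis from 0) held by the Phe-GAA family (blue circles) and the Trp-CCA family (red squares) at the 6 stages, with hours post-fertilization under each stage. Each point is 1 of 12 libraries and the lines join the means of 2 libraries; Phe-GAA ran between 2.03% and 2.70% and Trp-CCA between 2.09% and 3.00%.

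Neither family passed the test in any stage comparison. Counts summed by anticodon family were fitted with DESeq2, a negative binomial model, with its median-of-ratios scaling and its Wald test, over all 12 libraries, and a change was called at an adjusted p (Benjamini-Hochberg over 47 families) of at most 0.05. Of the 8 comparisons, the largest fitted difference in size for Phe-GAA was shield against egg, at a log2 fold change of -0.27 ± 0.13 (SE, n = 2 libraries a stage, DESeq2 adjusted p = 0.118). For Trp-CCA it was bud against sphere, at 0.38 ± 0.17 (DESeq2 adjusted p = 0.0638), followed by bud against egg at 0.37 ± 0.17 (adjusted p = 0.0762). The 95% interval of that bud against sphere value ran between 0.05 and 0.71. The call rule reached 36.2% of the 47 families for bud against egg, 29.8% for bud against sphere, 10.6% for bud against shield, 17.0% for shield against egg, 2.13% for shield against sphere, and 2.13%, 0% and 4.26% for 256-cell, 1000-cell and sphere against egg, and neither Phe-GAA nor Trp-CCA was among them. When the fit was limited to the 4 libraries compared, Trp-CCA passed for bud against sphere (0.38, DESeq2 adjusted p = 0.00219) and for bud against egg (0.31, adjusted p = 0.0441), and it also passed both when either 1000-cell library was left out (adjusted p between 0.0249 and 0.0353).

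The same comparisons were set beside the other amino acids that, as background, are read mainly by a single anticodon: tyrosine, histidine, asparagine, aspartate and cysteine. Of these 5 families (Tyr-GUA, His-GUG, Asn-GUU, Asp-GUC and Cys-GCA), 0 were called for bud against egg and 1 for bud against sphere, Asn-GUU, which was higher at bud (log2 0.45 ± 0.17, DESeq2 adjusted p = 0.0278). Their median log2 fold change for bud against egg was 0.24, against 0.07 over all 47 families. At bud against egg Phe-GAA stood at -0.13, below all 5, and Trp-CCA at 0.37, above all 5, which is a description of fitted values and not a test between families.

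The profile of each family over the 6 stages was compared with those of the other 46 families, by the root mean square difference of the log2 stage means after centring. Phe-GAA was nearest to Val-AAC (a difference of 0.053), Gln-CUG (0.056) and Ala-CGC (0.076), with a median of 0.158 over the 46. Trp-CCA was nearest to Arg-ACG (0.050), Ala-AGC (0.095) and Gly-UCC (0.098), with a median of 0.199. Of the 6 neighbours Arg-ACG was called, for bud against egg (log2 0.28 ± 0.11, DESeq2 adjusted p = 0.0328) and for bud against sphere (0.38 ± 0.11, adjusted p = 0.00308). All profiles come from the same 12 libraries.

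The balance between the families separated the gastrula libraries from the earlier ones. The log2 ratio of Trp to Phe counts, which does not depend on how libraries are scaled, was 0.27 and 0.42 at shield and 0.24 and 0.45 at bud, against -0.05 and -0.27 in egg, 0.19 and 0.03 at 256-cell, -0.05 and 0.21 at 1000-cell, and 0.13 and -0.14 at sphere. All 4 gastrula libraries lay above all 8 earlier ones, with a gap between 0.24 in the lowest gastrula library and 0.21 in the highest earlier one. The mean was 0.343 ± 0.102 in the 4 libraries labelled gastrula and 0.006 ± 0.168 (SD) in the 8 libraries from egg and blastula, a difference of 0.34. A two-sided exact permutation test treated the 12 libraries as exchangeable, without regard to shared stages or replicate numbers. The exact permutation p was 0.00404, the smallest that 495 rearrangements can give. Adjusted over the 1081 ratios between any 2 families it was 0.0291. This was no rare pattern in these data: 19.3% of the 1081 ratios were called by the same rule, and in 13.9% the groups did not overlap. The adjusted p of the exact permutation test was 0.0566 against the blastula libraries alone, without egg (difference 0.28). It was 0.0607 and 0.0585 without shield replicate 1 and 2, and 0.0771 and 0.0819 without bud replicate 1 and 2, with differences between 0.30 and 0.37. In each of these sets the gastrula libraries still lay above all earlier ones. Each unadjusted p was thus the smallest that its fewer rearrangements can give, so these sets cannot show that the pattern depends on the libraries left out.

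**Figure D2:**
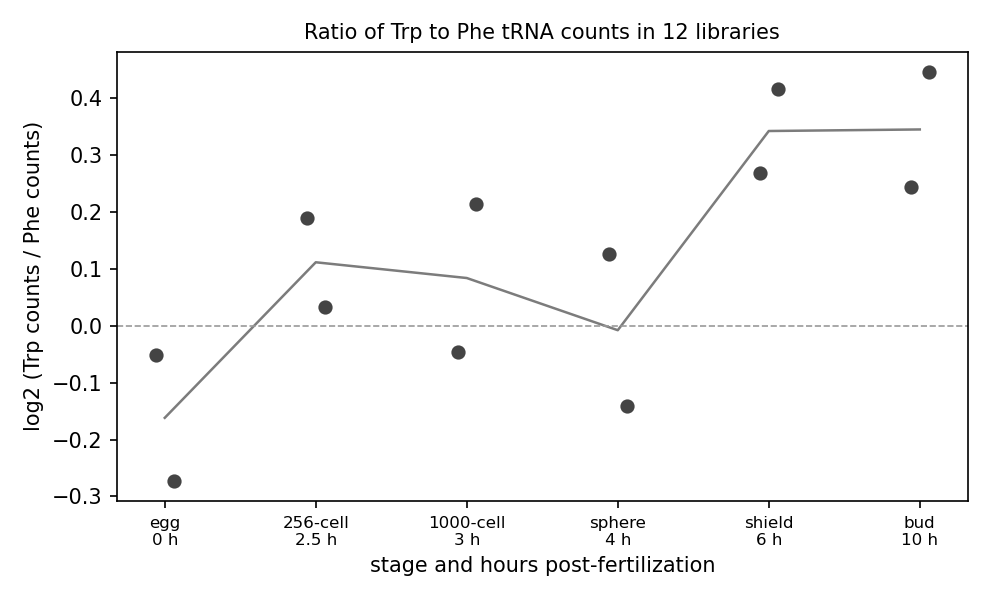
Log2 ratio of Trp-CCA to Phe-GAA counts (vertical axis) in each of 12 libraries at the 6 stages (horizontal axis, with hours post-fertilization); the line joins the means of 2 libraries and the dashed line marks equal counts. The 4 shield and bud libraries lie between 0.24 and 0.45, above the 8 earlier libraries at -0.27 to 0.21.

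Each family on its own did not separate them, since the shares of the gastrula and earlier libraries overlapped. Phe-GAA held 2.19% ± 0.199 in the 4 gastrula libraries and 2.40% ± 0.168 (SD) in the 8 earlier ones, a difference of -0.208 percentage points (exact permutation p = 0.0848, adjusted p = 0.166 over 47 families). Trp-CCA held 2.78% ± 0.245 in the gastrula libraries and 2.42% ± 0.254 in the earlier ones, a difference of 0.364 percentage points (exact permutation p = 0.0404, adjusted p = 0.0949). In this test 17.0% of the 47 families were called, without Phe-GAA or Trp-CCA. With mitochondrial tRNAs counted in the denominator the Trp-CCA difference was 0.496 percentage points and passed (exact permutation test, adjusted p = 0.0475). Nuclear tRNAs were a larger part of all counts in the gastrula libraries. They were 3134078 of 3417973 in bud replicate 1 and 791432 of 977425 in egg replicate 1. This denominator therefore raised the gastrula shares of all nuclear families relative to the earlier ones. The pass is thus no result about Trp-CCA by itself.

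Single transcripts were tested with DESeq2 on the single-transcript entries, with p values adjusted over the whole table. Of the 12 detected Phe and Trp transcripts, 0 were called in each of the comparisons of 256-cell, 1000-cell and sphere against egg, where the rule called 0.988%, 0.494% and 0.824% of 607 transcripts and 2, 3 and 0 of the 12 had an unadjusted p under 0.05. For shield against sphere 0 of the 12 were called as well, where the rule called 1.65%, and 2 had an unadjusted p under 0.05. The share of the 607 at that unadjusted threshold was not computed, so these unadjusted counts are no result about the members. Of the 12, tRNA-Trp-CCA-16 reached the detection threshold only in 1000-cell replicate 2. tRNA-Trp-CCA-10 reached it only in 256-cell replicate 2 and shield replicate 1. The edgeR quasi-likelihood test also called 0 of the 12 in these 4 comparisons. For shield against egg 1 of the 12 was called, lower at shield, where 7.41% of 607 were called lower. For bud against egg 2 of the 12 were called, both higher at bud, where 16.0% of 607 were called higher, and the same 2 were called for bud against sphere, where 13.7% were called higher. For bud against shield 1 of the 12 was called higher, where 10.4% were. All 3 transcripts behind these calls belonged to Phe-GAA. One of the 2 higher at bud, tRNA-Phe-GAA-15, was among the 12 only because 1 gastrula library, shield replicate 2, held it at 0.00533% of nuclear counts, so the counts at bud rest in part on a member let in by the group where it was high. Counts of 1 or 2 in 12 stand near those shares of the whole table and are no result about these families.

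The calls at bud depended on how libraries were scaled. When libraries were scaled by total nuclear counts instead of by median of ratios, the median log2 fold change of the 607 transcripts shifted by -0.37 at bud relative to egg, by -0.39 relative to sphere and by -0.44 relative to shield. At shield relative to egg the shift was 0.05. A transcript called higher at bud was therefore higher relative to the typical transcript, and its rise relative to the whole tRNA pool was smaller. Under total counts 2 of the 12 were also called for bud against egg, but these were tRNA-Phe-GAA-14 (log2 -1.12, adjusted p = 0.00444) and tRNA-Phe-GAA-9 (-0.99, adjusted p = 0.0379), both lower at bud, in the DESeq2 Wald test. Under that scaling 24.1% of the 607 transcripts were called lower, so 2 of 12 is no result about these families. Both are named here because the other scaling called them. With median-of-ratios scaling they stood at -0.74 (DESeq2 adjusted p = 0.140) and -0.62 (adjusted p = 0.304).

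tRNA-Phe-GAA-1, the Phe transcript with 44 gene copies, was higher at bud. Its normalized counts were 19664.5 and 14812.3 at bud, against 8634.0 and 11025.7 in egg and 9636.9 and 9569.9 at sphere. Both bud libraries lay above both libraries of either earlier stage, and the bud pair differed by about as much as the egg pair did on a log scale. The log2 fold change was 0.81 ± 0.28 against egg (DESeq2 adjusted p = 0.0276) and 0.84 ± 0.28 against sphere (adjusted p = 0.0185). At shield it stood at 12071.9 and 9609.3, which gave 0.14 against egg (adjusted p = 0.851). Relative to total nuclear counts the values at bud were 0.43 against egg (DESeq2 adjusted p = 0.321) and 0.46 against sphere (adjusted p = 0.296), so both calls ended under that scaling. Leaving out 1 library ended the call against egg in 7 of 12 fits (egg replicate 1, both replicates of 1000-cell, sphere and bud). It ended the call against sphere in 4 of 12 (1000-cell replicate 1, both sphere replicates and bud replicate 1). Over these fits the log2 fold changes lay between 0.61 and 1.05.

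The part of the Phe family taken by tRNA-Phe-GAA-1 needs no scaling between libraries, and it was also higher in the gastrula. It was 24.2% and 16.3% at shield and 23.7% and 20.9% at bud, against 13.6% and 15.02% in egg, 12.6% and 17.1% at 256-cell, 16.5% and 11.99% at 1000-cell, and 16.3% and 15.3% at sphere. Shield replicate 2 overlapped the earlier libraries and the other 3 gastrula libraries lay above all of them. The mean was 21.3% ± 3.60 in the 4 gastrula libraries and 14.8% ± 1.88 (SD) in the 8 earlier ones, a difference of 6.47 percentage points (two-sided exact permutation p = 0.0121, adjusted p = 0.0269 over the 164 entries of all families that reached 5% of their family). The rule called 53.0% of those 164 entries, so a shift of this kind was common in the table. The adjusted p was 0.0593 against the blastula libraries alone, 0.0609 without shield replicate 1, 0.0806 without bud replicate 1 and 0.0774 without bud replicate 2, with differences between 5.50 and 6.61 percentage points.

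tRNA-Phe-GAA-5, the most abundant Phe transcript, was lower at shield than in egg. Its normalized counts were 23417.1 and 27835.0 at shield, against 35960.9 and 40468.5 in egg. The log2 fold change was -0.58 ± 0.20 (DESeq2 adjusted p = 0.0425), and it was -0.53 (adjusted p = 0.0480) under total counts. At bud the counts were 42761.4 and 37538.1, which was 0.65 ± 0.20 above shield (DESeq2 adjusted p = 0.0250) and 0.07 ± 0.20 from egg (adjusted p = 0.884). Under total counts the difference between bud and shield was 0.22 (DESeq2 adjusted p = 0.434), so that call ended. As a share of nuclear counts it held 1.42% and 1.49% in egg, 0.951% and 1.07% at shield, and 1.26% and 1.08% at bud. Both bud libraries thus lay below both egg libraries, so the return to the egg level depended on the scaling. Leaving out 1 library ended the shield against egg call in 11 of 12 fits, all but the one without 256-cell replicate 1, and the bud against shield call in 6 of 12 (both replicates of 1000-cell and bud, sphere replicate 2 and shield replicate 1), without a change of sign. The edgeR quasi-likelihood test did not call shield against egg (log2 -0.49, adjusted p = 0.136). Its part of the family was 49.7% ± 2.98 in the 4 gastrula libraries and 52.5% ± 3.32 in the 8 earlier ones (exact permutation p = 0.170, adjusted p = 0.221).

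The third transcript called was tRNA-Phe-GAA-15, a rare transcript of 1 gene that held 0.162% of the Phe family on average. Its normalized counts were 153.5 and 128.8 at bud, against 83.5 and 69.7 in egg and 77.0 and 75.0 at sphere, and at shield they were 118.9 and 139.1. The raw counts behind them were few, with 142 and 158 at bud, 26 and 52 in egg and 74 and 54 at sphere. The transcript passed the detection threshold in 1 library alone, shield replicate 2, so it entered the counted set through a stage where it was high, and its values are given as a description. The log2 fold change was 0.90 ± 0.33 for bud against egg (DESeq2 adjusted p = 0.0487) and 0.89 ± 0.32 for bud against sphere (adjusted p = 0.0337). Both calls ended whichever of the 12 libraries was left out, with log2 fold changes between 0.76 and 1.03. They also ended under total counts (0.53 and 0.50, DESeq2 adjusted p = 0.325 and 0.324).

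None of the other detected Phe transcripts passed in the single-transcript fit. tRNA-Phe-GAA-14 stood at the threshold for shield against egg, with normalized counts of 539.8 and 933.9 at shield, against 1341.6 and 1548.9 in egg. Its log2 fold change was -0.97 ± 0.35 (DESeq2 adjusted p = 0.0508) in that fit and -0.98 ± 0.34 (adjusted p = 0.0476) in the entry-level fit, in which unresolved groups are rows too and in which it passed. The entry-level fit called 2 of the 15 detected Phe and Trp entries lower for shield against egg, tRNA-Phe-GAA-14 and tRNA-Phe-GAA-5, where 7.41% of 661 detected entries were called lower. tRNA-Phe-GAA-10 had normalized counts of 2073.4 and 2981.4 at shield, against 4060.2 and 4599.6 in egg. The log2 fold change of -0.78 ± 0.32 did not pass (DESeq2 adjusted p = 0.102). Its part of the family was 4.98% ± 0.589 in the gastrula libraries and 5.85% ± 0.743 in the earlier ones (exact permutation p = 0.0727, adjusted p = 0.110). The 24/25/31 group stood at 12.3% and 14.2% of the family at bud, 15.2% and 21.1% at shield and 17.2% and 22.9% at 1000-cell, and its mean was 15.7% ± 3.80 in the gastrula libraries and 17.2% ± 3.51 in the earlier ones (adjusted p = 0.576, exact permutation test). The entry-level fit gave it a log2 fold change of 0.02 ± 0.32 for bud against egg (DESeq2 adjusted p = 0.983). The 19-transcript group stood at 0.12 ± 0.40 in the same comparison (adjusted p = 0.904). Signs of both values turned under total counts (-0.36 and -0.25).

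**Figure D3:**
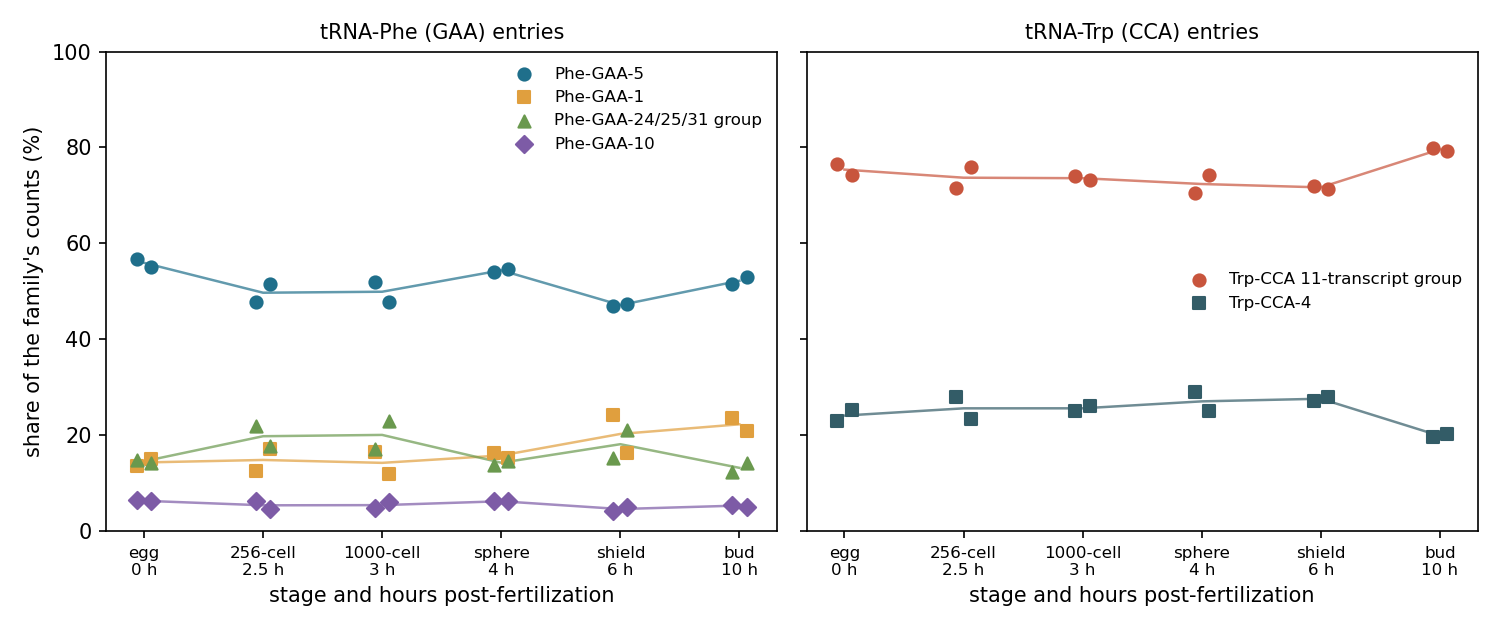
Share of the family's counts (percent) held by each large entry of tRNA-Phe (left: tRNA-Phe-GAA-5, tRNA-Phe-GAA-1, the 24/25/31 group and tRNA-Phe-GAA-10) and tRNA-Trp (right: the 11-transcript group and tRNA-Trp-CCA-4) at the 6 stages, with hours post-fertilization under each. Each point is 1 of 12 libraries and lines join the means of 2; the bud libraries of the Trp group lie at 79.9% and 79.3%, above its other 10, and tRNA-Phe-GAA-1 reaches 24.2% in a shield library.

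In the Trp family the 11-transcript group was higher at bud. In the entry-level fit its normalized counts were 78241.4 and 77040.8 at bud, against 47058.3 and 45257.3 in egg and 45598.9 and 42176.8 at sphere. The bud libraries lay above all 10 others, of which the highest was a shield library at 55949.2. How many entries of other families did the same was not counted. The log2 fold change was 0.75 ± 0.25 for bud against egg (DESeq2 adjusted p = 0.0216) and 0.82 ± 0.25 for bud against sphere (adjusted p = 0.00873), and 0.65 ± 0.25 for bud against shield did not pass (adjusted p = 0.0996). The rule called 15.7% of 661 detected entries higher for bud against egg and 13.9% for bud against sphere. Under total counts the values were 0.37 (DESeq2 adjusted p = 0.277) and 0.43 (adjusted p = 0.179), and neither passed. The call against egg ended without either library of egg, sphere or bud, and the call against sphere without either library of sphere or bud. With 1 library left out the log2 fold changes lay between 0.72 and 0.89.

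tRNA-Trp-CCA-4, the single-gene transcript, did not pass in any comparison. Its normalized counts were 19192.1 and 19513.5 at bud, against 14071.1 and 15303.4 in egg, 18688.8 and 14284.0 at sphere and 16305.6 and 22017.7 at shield. On this median-of-ratios scaling the bud libraries lay above the egg libraries, and within the range of the shield ones. The log2 fold change was 0.40 ± 0.30 for bud against egg (DESeq2 adjusted p = 0.448) and 0.01 ± 0.30 for bud against shield (adjusted p = 0.995). Total-count scaling shifted the median transcript by -0.37 for bud against egg, nearly the size of that 0.40. It also turned the sign of tRNA-Trp-CCA-4 for bud against sphere and for bud against shield. As a part of the family the entries mirrored each other: the group held 79.9% and 79.3% at bud, 72.0% and 71.3% at shield and 70.5% and 74.3% at sphere, while tRNA-Trp-CCA-4 held 19.5% and 20.2% at bud, 27.2% and 28.1% at shield and 29.0% and 25.2% at sphere. The 2 bud libraries were the highest of 12 for the group and the lowest of 12 for tRNA-Trp-CCA-4. How often the bud libraries were at an extreme for entries of other families was not counted, so this is a description. These entries make up nearly all of the family, so the share of either sets the other, and they are not separate observations. Between gastrula and earlier libraries, a comparison that pools bud with shield, neither passed (exact permutation adjusted p = 0.395 for the group and 0.401 for tRNA-Trp-CCA-4).

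The resolved Trp transcripts alone would thus give another account of the family. Without the unresolved group, the Trp sum for bud against sphere was -0.09 on the log2 scale (DESeq2 adjusted p = 0.786) and for bud against shield -0.39 (adjusted p = 0.163), where the whole family stood at 0.38 and 0.13. The Phe sum without groups was -0.37 for shield against egg and passed (adjusted p = 0.0226), where the whole family stood at -0.27. Single transcripts held 73.7% to 85.4% of Phe counts and 20.1% to 29.5% of Trp counts in a library. The Trp to Phe ratio on single transcripts alone differed by 0.19 between gastrula and earlier libraries (exact permutation test, adjusted p = 0.459).

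The 3 rarer detected Trp transcripts (tRNA-Trp-CCA-6, tRNA-Trp-CCA-16 and tRNA-Trp-CCA-10) held 0.205%, 0.135% and 0.119% of the family on average and were not called in the single-transcript or the entry-level fit. Their log2 fold changes for bud against egg were -0.06 ± 0.29, 0.96 ± 0.41 and 1.36 ± 0.62. Below the detection threshold, 2 further transcripts passed for bud against egg. Without the threshold 4 of the 21 Phe and Trp transcripts with an adjusted p were called in either direction, where the rule called 14.9% of 1309 in the whole table. tRNA-Phe-GAA-3, at most 0.0963% of the Phe family, was lower at bud (log2 -2.11 ± 0.61, DESeq2 adjusted p = 0.00553), and tRNA-Trp-CCA-14, at most 0.145% of the Trp family, was higher (1.06 ± 0.38, adjusted p = 0.0394). They are named because a count without the threshold includes them, and their levels are too low to move either family.

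**Figure D4:**
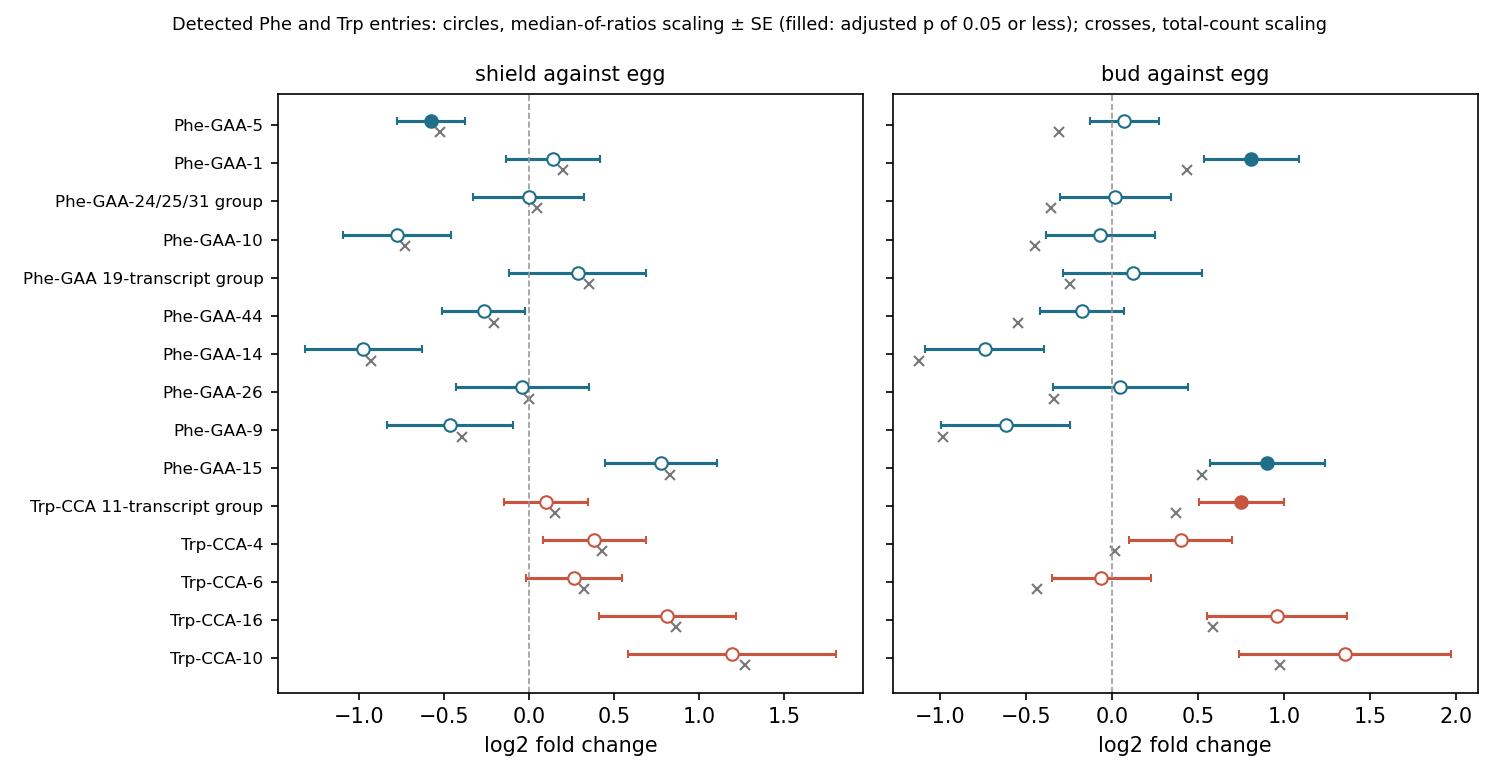
Log2 fold change (horizontal axis) of the 15 detected Phe (blue) and Trp (red) entries for shield against egg (left) and bud against egg (right). Circles give the DESeq2 estimate with median-of-ratios scaling ± SE, filled where the adjusted p was at most 0.05, from the entry-level fit for unresolved groups and the single-transcript fit for the rest; crosses give the estimate with total nuclear counts, which lies lower in every row at bud, as for the Trp group (0.75 and 0.37).

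The amino acids stood at opposite ends of the charging range. Averaged over the 6 charging libraries, Trp-CCA ranked 2 and Phe-GAA ranked 45 of the 46 families with a charged fraction, counted from the most charged. The charged fraction of Phe-GAA was 0.784, 0.853 and 0.788 at bud, against 0.801, 0.843 and 0.826 at sphere. That of Trp-CCA was 0.927, 0.956 and 0.934 at bud, against 0.9302, 0.944 and 0.940 at sphere. Every Trp-CCA value lay above every Phe-GAA value, and in each library Phe-GAA was below and Trp-CCA above the median of the 46 families. The median of the family means was 0.893 at bud and 0.901 at sphere. Replicate 2 was the highest of its stage for both families at bud and at sphere, and the median over families was highest in these libraries too (0.922 at bud and 0.909 at sphere).

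Neither amino acid differed in charging between the stages beyond the spread of the libraries. Phe-GAA averaged 0.808 ± 0.039 at bud and 0.823 ± 0.021 at sphere (SD, n = 3 each), a difference of -0.015 with an interval at a confidence level of 95% of -0.051 to 0.021 from limma on the fraction scale. Trp-CCA averaged 0.939 ± 0.015 at bud and 0.938 ± 0.007 at sphere, a difference of 0.001 with an interval of -0.035 to 0.037. The two-sided exact permutation p was 0.60 for Phe-GAA and 1.0 for Trp-CCA, in a design of 3 against 3 that cannot go below 0.10. limma on the logit of the charged fraction gave both an adjusted p of 0.991 over 46 families, and it called 0 of the 46 families, with 2 (4.35%) at an unadjusted p under 0.05.

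**Figure D5:**
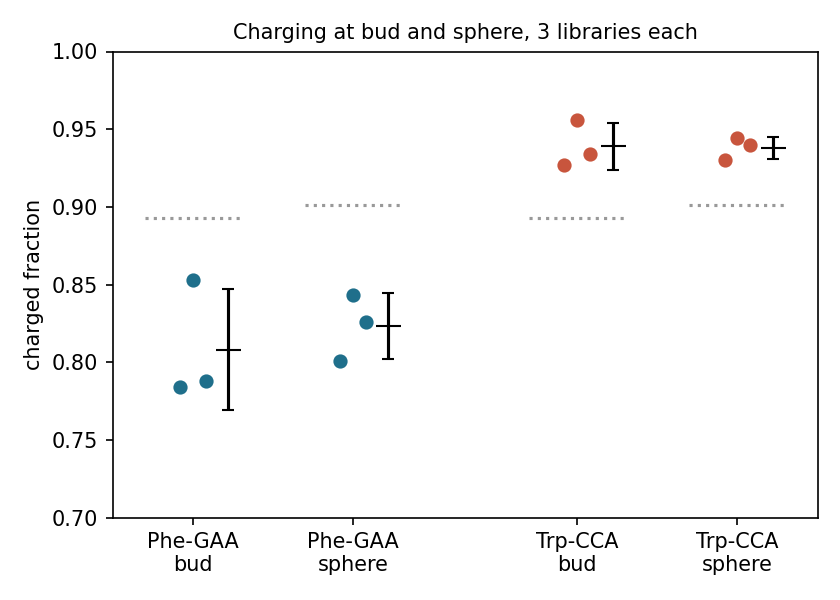
Charged fraction (vertical axis, shown from 0.7 to 1) of Phe-GAA (blue) and Trp-CCA (red) at bud and at sphere. Points are 3 libraries a stage, black bars the mean ± SD, and dotted lines the median over 46 families (0.893 at bud and 0.901 at sphere); Phe-GAA lies below that line and Trp-CCA above it at both stages.

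Abundance and charging came from separate libraries, so their product is a description with no error. Share times charged fraction gave 1.82% of nuclear counts as charged Phe-GAA at bud and 1.92% at sphere, a ratio of 0.947. For Trp-CCA it gave 2.67% at bud and 2.17% at sphere, a ratio of 1.23. The uncharged part was 0.431% for Phe-GAA at bud and 0.412% at sphere, and 0.173% for Trp-CCA at bud and 0.143% at sphere.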

How the data were processed

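Per the labels and the methods of the study, the authors trimmed reads with cutadapt 3.5 and ran mim-tRNAseq on tRNA genes predicted in the GRCz11 assembly. Abundance was deposited as raw counts, whole numbers of uniquely mapped reads for each transcript or unresolved group, beside gene copy numbers, of which 1 (outside these families) was not a number. For charging, the authors chemically shortened uncharged tRNAs and deposited the charged fraction of each anticodon in each library. Depth is unknown there, so no counting interval was made. Anticodons are written with U for T. No per-sample column was left unmapped (0). No tRNA sequence or position was used here.

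Nuclear counts were summed into 47 families. Main tests were DESeq2 1.42.0 (Wald, stage only, 12 libraries, 8 contrasts) on families, single transcripts and all entries, under R 4.3.3, and exact permutation of 4 gastrula against 8 other libraries. Charging was tested with limma 3.58.1. Alternatives were edgeR 4.0.16, TMM or total-count scaling, other thresholds, fewer libraries and a replicate block. The DESeq2 fit was tried on simulated independent libraries, for bud against egg at the family and single-transcript levels only. The entry-level, permutation, limma and edgeR tests were not tried on simulated data. Per-library values are given for detected entries that hold at least 5% of their family or passed a test. A count of 0 allows 3 counts, 0.000379% of nuclear counts in the shallowest library. Replicate pools were collected on different days per the study, and the labels do not name them further. Replicates differed beyond sampling noise (chi-square per degree of freedom of 36.5 or more). The members and lists were chosen with earlier results of these data known.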

Additional observations from a re-analysis of the deposited data

How the results depend on the processing

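Over 51 results and 868 alternative values, 696 were scored as the same, and 127 of the other 172 came from leaving out 1 library. For a tested value this meant the same direction and side of the threshold. For a count of transcripts called it meant a similar number, whatever their direction and names. Phe-GAA, bud against sphere, turned sign with edgeR (log2 -0.0034), TMM size factors (-0.0034) and total counts (-0.051), all far from the threshold. Trp-CCA passed with only the 4 libraries compared, for bud against egg (0.31) and bud against sphere (0.38). On single transcripts only, Phe-GAA passed for shield against egg (-0.37) and Trp-CCA turned sign for sphere against egg (0.13), bud against sphere (-0.089) and bud against shield (-0.39). Under total counts signs turned for tRNA-Trp-CCA-4 (-0.16 for bud against sphere, -0.42 for bud against shield), for the 24/25/31 group (-0.36 for bud against egg, -0.17 for bud against sphere) and for the 19-transcript group (-0.25 and -0.22). With all counts as denominator the Trp-CCA share difference passed (0.496 points), but that denominator lifts every nuclear family in the gastrula libraries. Without egg the Trp to Phe ratio (0.28) and the tRNA-Phe-GAA-1 share (6.32 points) no longer passed, nor did the ratio on single transcripts (0.19). For the ratio without egg the gastrula libraries still lay above all others, and its unadjusted p was the smallest that fewer rearrangements can give. Beyond that limit and that choice of denominator, why these values moved was not tested.

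The number of the 12 transcripts called was 0 for shield against egg with edgeR, with TMM size factors and with the 4 libraries alone. In these fits the rule called 45, 75 and 38 of 607. For bud against egg it was 1 with edgeR and 1 with 4 libraries, where the rule called 103 and 126 of 607. For bud against sphere it was 1 with edgeR, where 61 of 607 were called. With 4 libraries it was 2, 1 higher and 1 lower, where 139 were called. For bud against shield it was 0 with 4 libraries, where 56 of 607 were called. Under total counts it was 2, 2 and 1 for bud against egg, sphere and shield, all lower at bud. The rule then called 146, 125 and 45 of 607 lower. Other thresholds change which transcripts are counted. With detection at 0.05% 1 of 7 was called for bud against egg and for bud against sphere, where the rule called 74 and 61 of 187. With no threshold 4 of 34 were called for bud against egg. Of the 34, 21 had an adjusted p, and the rule called 195 of 1309 such transcripts in the whole table. With 1 library left out the counts of the 12 ran between 0 and 1 for shield against egg, bud against egg, shield against sphere, bud against sphere and bud against shield, so the counts of 2 never recurred.

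Log2 ranges with 1 library left out were -0.10 to 0.15 for Phe-GAA, bud against sphere, and for Trp-CCA -0.17 to 0.33 (1000-cell against egg), -0.066 to 0.038 (sphere against egg), 0.32 to 0.42 (bud against egg), 0.34 to 0.43 (bud against sphere) and -0.030 to 0.29 (bud against shield). They were 0.30 to 0.37 for the Trp to Phe ratio, -0.032 to 0.32 for tRNA-Phe-GAA-1 (shield against egg), -0.19 to 0.26 for tRNA-Trp-CCA-4 (bud against shield), -0.043 to 0.086 for the 24/25/31 group (bud against egg), and -0.18 to 0.52 (bud against egg) and -0.0018 to 0.36 (bud against sphere) for the 19-transcript group. Shares of the family ran from 5.50 to 8.12 points for tRNA-Phe-GAA-1 and from -1.06 to -0.597 points for tRNA-Phe-GAA-10, which passed without 256-cell replicate 2. The Trp-CCA charging difference ran from -0.13 to 0.14 on the logit scale. With 1 library left at a stage, that library is assumed to vary like the others.

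Over detected transcripts, abundance libraries of equal replicate number often deviated together. Of 15 stage pairs, 13 correlations of same-numbered deviations were above 0.1, with a range from -0.18 to 0.86. Over family counts the correlations ran from -0.22 (256-cell with sphere) to 0.88 (1000-cell with shield). More of them were negative than over detected transcripts, but most were positive. In charging, 2 of 6 libraries were closest to their own number. The labels do not say what equal numbers share, so the main tests did not pair them. The exact permutation tests treat libraries as exchangeable and take no account of such shared deviations. A replicate block moved the count for shield against egg to 2, both lower, where the rule called 61 of 607 lower. It changed no other call (Trp-CCA, bud against sphere, 0.38).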
